A study of Sus scrofa with 11 samples.

Results

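The constitutive proteasome is described here through the 36 probe sets, among 27558 in all, whose only gene symbol starts with PSMA, PSMB, PSMC, PSMD, PSME, PSMF or PSMG, without the inducible subunits PSMB8, PSMB9 and PSMB10. They stand for 35 genes, with PSMD14 on 2 probe sets. PSMC3IP carries the prefix but encodes a partner of meiotic recombinases and is kept apart, which leaves 34 proteasome genes. By role these are 6 of the core's alpha ring, 5 of its beta ring, 5 ATPases and 8 non-ATPase subunits of the cap, 4 activators, 1 inhibitor and 5 assembly chaperones. Other subunits, among them PSMA2, PSMA7, PSMB1, PSMC4, PSMD2, PSMD4 and PSMG1, were not analysed here.

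The tissue was the ischemic zone of the left ventricle of intact male Yorkshire pigs, all with an ameroid constrictor, a ring that slowly closes the vessel, on the left circumflex coronary artery. The groups were HFD+EV (high fat diet, extracellular vesicles injected into the heart muscle; 3 arrays), HFD (high fat diet, vehicle injected; 2 arrays), ND+EV (normal diet, vesicles; 3 arrays) and ND (normal diet, vehicle; 3 arrays). Per the labels the diets lasted 12 weeks and tissue was taken 5 weeks after the injection. The labels give neither the age of the pigs nor the cells that the vesicles came from, and no group without the constrictor was analysed here. The titles call the arrays of a group biological replicates but tie none to a named animal, so p-values measure the spread between these arrays.

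The proteasome is the protease that degrades proteins marked with ubiquitin. Its barrel-shaped core has outer alpha rings, which gate the entrance, around inner beta rings, which hold the cutting sites. A regulatory cap binds ubiquitin chains, removes them, unfolds the substrate with a ring of ATPases and feeds it into the core. In heart muscle, which turns over its contractile proteins steadily, it is one of the main routes of protein breakdown, and subunit genes are known to be transcribed in a coordinated way.

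Values are the authors' normalized log2 signal of a probe set, so a difference of 1 is a doubling of signal. Probe sets bind with different strength, and levels are compared only within a probe set, between arrays. Probe sets in the dimmest 25% by mean signal did not enter the tests. Of the 34 proteasome genes 33 passed that filter. PSMA8, a testis form of an alpha subunit, did not, with log2 signals of 3.17 to 3.42 over the 11 arrays. Group differences are log2 fold changes with the standard error (SE) of limma, tested two-sided; p-values were adjusted by Benjamini-Hochberg over the 20668 probe sets that entered, and 0.05 was the threshold.

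The labelled tissue was checked against marker genes. Of the 7 genes tested from the ventricular list, ACTC1, MYL2, MYH7 and MYL3 had log2 signals of 11.58 or more on every array. The lowest signals of RYR2 and MYBPC3 were 9.34 and 9.61, and PLN lay at 4.97 to 6.955. The T cell gene CD3E lay at 4.57 to 4.92, near the array medians of 4.36 to 4.48. Bright signal was not limited to ventricular genes, as the fibroblast gene DCN lay at 10.69 to 12.31. The atrial light chain gene MYL7 ranged from 6.35 to 9.79. ND replicates 1 and 3 had the lowest mean correlations with the other arrays (0.947 and 0.952, against 0.965 to 0.972 for the other 9) and the narrowest signal distributions (SD of log2 signal 1.45 and 1.47), while HFD replicate 2 had the widest (1.62). The medians, the calls and some counts that rest on ND are therefore also given without those 2 arrays.

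Proteasome genes were low together on the ND arrays and high together on the HFD arrays. On HFD replicates 1 and 2, 2 and 5 of the 33 genes lay below their own mean over the 11 arrays. On ND replicates 1, 2 and 3, 28, 21 and 27 genes did. The vesicle-injected arrays were spread, some near the HFD counts, some near the ND counts and some between. Only 3 genes were below their mean on each of HFD+EV replicates 2 and 3, but 27 were on HFD+EV replicate 1. The counts were 12, 7 and 22 on ND+EV replicates 1, 2 and 3. Of all probe sets tested, 48.2% to 52.3% lay below their mean on an array. ND replicate 1 was the lowest array for 16 of the 33 genes and ND replicate 3 for 8, against 16.2% and 15.4% of all probe sets tested. The heat map of signal by array shows most core and cap genes low and high on the same arrays, with exceptions such as PSMB11 in the core, and a weaker pattern in the assembly genes other than PSMD5.

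**Figure D1:**
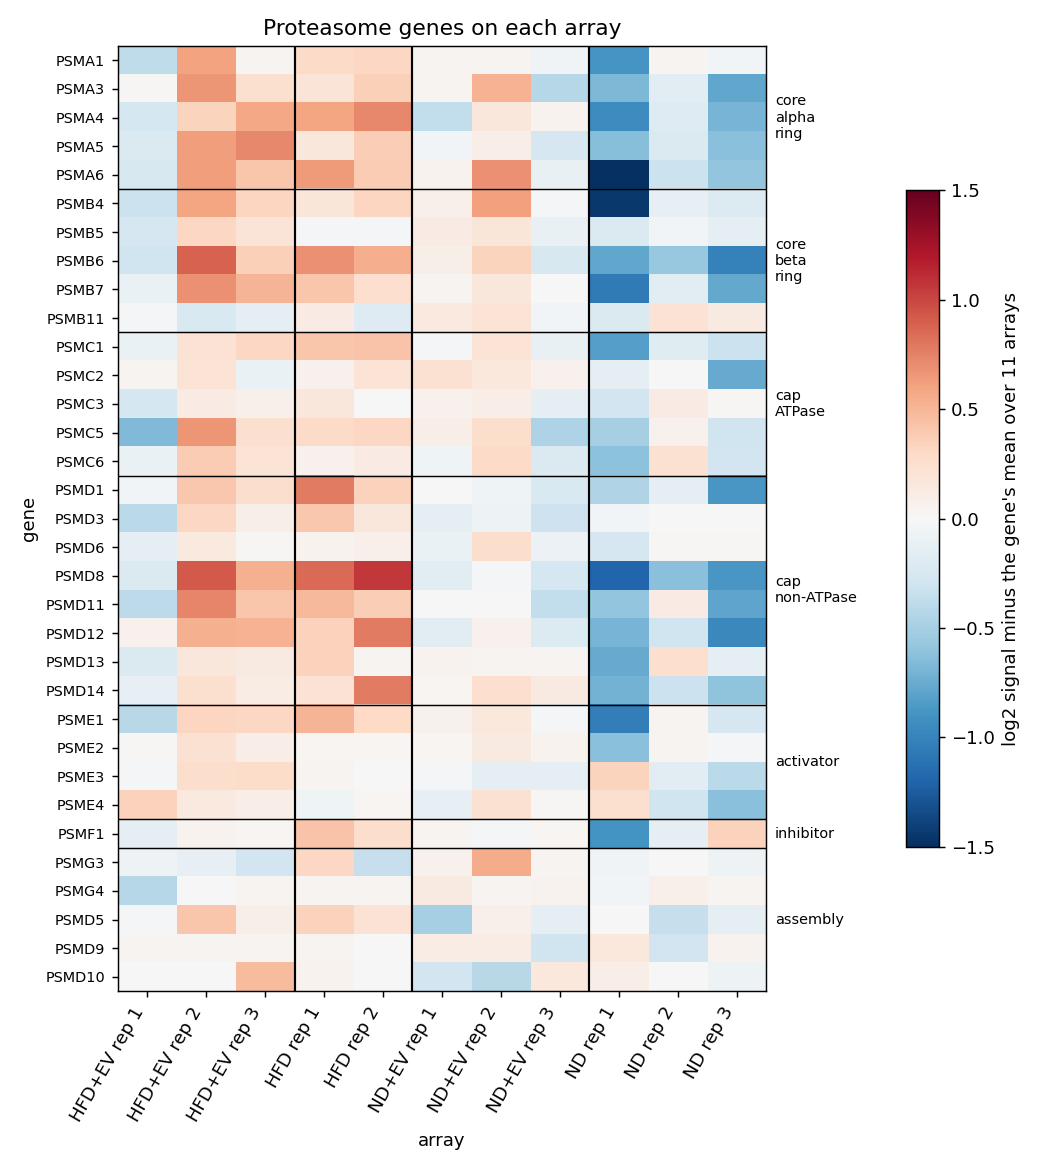
Log2 signal of the 33 proteasome genes tested (rows, by role) on the 11 arrays (columns, by group), as the difference from the gene's mean over all arrays; red is higher and blue lower, and the colour scale ends at 1.5 on either side. ND replicates 1 and 3 are blue for 28 and 27 genes, and HFD+EV replicate 1 for 27, while the HFD arrays and HFD+EV replicates 2 and 3 are mostly red.

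Averaged over their genes, core and cap moved alike from array to array, and the mean of the assembly genes hardly moved. Single assembly genes ranged more widely, PSMG3 from 5.12 to 6.03 and PSMD5 from 4.17 to 5.08 in log2 signal. Some genes carried exactly the same value on several arrays. PSMG4 had 6.05419 on both HFD arrays, and PSMD9 had 5.30975 on all HFD+EV arrays. PSMD10 among the assembly genes, and PSMA1 and PSME2 outside them, also held such ties. Their part in the level mean of the assembly genes was not tested. The mean deviation from the gene's mean was 0.33 and 0.30 for the 10 core genes on the HFD arrays, against -0.84, -0.15 and -0.47 on the ND arrays. For the 13 cap genes it was 0.34 and 0.36 on the HFD arrays, against -0.54, -0.059 and -0.45 on the ND arrays. Both sets separated the HFD arrays from the ND arrays. The 5 assembly genes gave 0.16 and -0.022 on the HFD arrays, against 0.032, -0.12 and -0.037 on the ND arrays, which overlap. Among vesicle-injected hearts the core genes gave -0.21, 0.51 and 0.32 in HFD+EV and 0.019, 0.30 and -0.12 in ND+EV. The cap genes gave -0.20, 0.39 and 0.22 in HFD+EV and -0.014, 0.11 and -0.16 in ND+EV. HFD+EV held both the highest and the lowest of these 6 arrays, so these groups overlapped for core and cap alike.

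**Figure D2:**
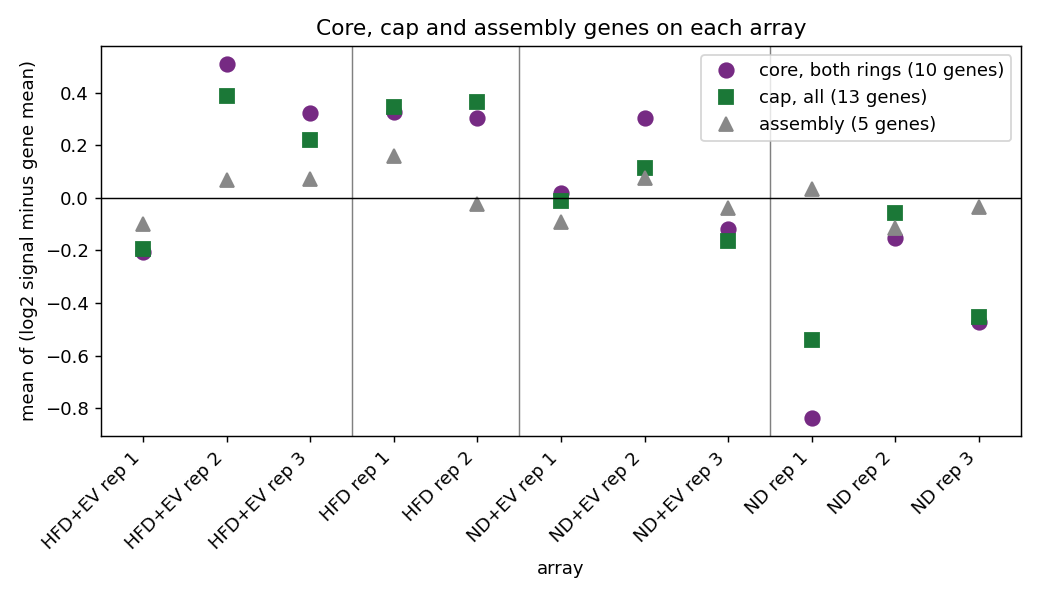
Mean over the genes of a role of the log2 signal minus the gene's mean over all arrays (vertical axis), for each array (horizontal axis, by group). Core (circles, 10 genes) and cap (squares, 13 genes) run together from -0.84 on ND replicate 1 to 0.51 on HFD+EV replicate 2, and assembly genes (triangles, 5 genes) stay between -0.12 and 0.16.

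The high fat diet was compared with the normal diet in hearts injected with vehicle. In HFD 32 of the 33 genes had a higher mean than in ND, where 47.5% of all probe sets tested did. The median log2 fold change was 0.54, against -0.022 over all probe sets tested. The 2 HFD arrays lay above all 3 ND arrays at 21 of the 33 genes, against 19.4% of all probe sets tested, and below them at 0, against 19.7%. With limma 3 genes passed on the higher side (background 0.513%) and 0 on the lower side (background 0.223%), while 14 had an unadjusted p under 0.05 on the higher side (background 13.6%). All 3 are non-ATPase subunits of the cap: PSMD8, PSMD12 and PSMD14.

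PSMD8, a subunit of the cap's lid, rose most. Its log2 signal was 8.17 and 8.38 in HFD, against 6.13, 6.69 and 6.45 in ND, and lay at 7.10, 8.24 and 7.86 in HFD+EV and 7.17, 7.30 and 7.06 in ND+EV. Every HFD array was above every ND+EV array, and every ND+EV array above every ND array. The log2 fold change of HFD over ND was 1.85 ± 0.28 (SE), a fold of 3.61, with a limma adjusted p of 0.0471. It ranked 17 by p among all probe sets tested.

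PSMD12, a scaffold subunit of the lid, had log2 signals of 6.04 and 6.48 in HFD, against 4.999, 5.39 and 4.73 in ND. In vesicle-injected hearts they were 5.76, 6.23 and 6.22 in HFD+EV and 5.54, 5.76 and 5.50 in ND+EV. HFD and ND did not overlap, and the log2 fold change was 1.22 ± 0.22 (SE), a fold of 2.33 (limma adjusted p = 0.0471).

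PSMD14 is the deubiquitinase of the lid that cuts ubiquitin chains off the substrate. On its brighter probe set (15239536) it had 7.11 and 7.67 in HFD, against 6.18, 6.58 and 6.29 in ND, with 6.77, 7.13 and 7.01 in HFD+EV and 6.92, 7.15 and 7.03 in ND+EV. The ND arrays were below all 8 others. The log2 fold change of HFD over ND was 1.04 ± 0.19 (SE; limma adjusted p = 0.0471). The other probe set (15236281) gave a similar 1.02 ± 0.30, which did not pass (limma adjusted p = 0.0872).

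These 3 calls lie close to the threshold. The adjusted p of 0.0471 was shared by 118 probe sets, and each of the 3 genes passed in 5 of 21 other settings, with log2 fold changes from 1.54 to 1.99 for PSMD8, 0.87 to 1.44 for PSMD12 and 0.77 to 1.32 for PSMD14. Without ND replicates 1 and 3, which leaves 1 ND array, 0 passed and the log2 fold changes were 1.59, 0.87 and 0.82.

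Of the core genes 9 of 10 had a higher mean in HFD, and none passed. In the alpha ring all 5 genes had HFD arrays above all ND arrays. PSMA6 had 7.39 and 7.13 in HFD, against 5.22, 6.43 and 6.16 in ND, with 6.51, 7.38 and 7.16 in HFD+EV and 6.80, 7.43 and 6.64 in ND+EV. ND replicate 1 lay far below the other 10 arrays, and the log2 fold change of HFD over ND was 1.32 ± 0.37 (SE; limma adjusted p = 0.0796). PSMA4 (1.27, adjusted p = 0.0600), PSMA3 (0.81), PSMA5 (0.77) and PSMA1 (0.60) followed.

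In the beta ring the genes of 2 cutting subunits and of PSMB4 were higher, and those of the other 2 members were nearly level. PSMB6, the subunit that cuts after acidic residues, had 7.56 and 7.42 in HFD, against 6.10, 6.30 and 5.86 in ND, with 6.57, 7.76 and 7.23 in HFD+EV and 6.96, 7.21 and 6.64 in ND+EV. All ND arrays were below the other 8. Its log2 fold change of HFD over ND was 1.40 ± 0.30 (SE; limma adjusted p = 0.0600). PSMB7, which cuts after basic residues, gave 0.9965 and PSMB4, a non-cutting subunit, 0.84. PSMB5, which cuts after hydrophobic residues, gave 0.11 ± 0.17 (SE; limma adjusted p = 0.723), with both HFD arrays above all ND arrays. The log2 signals of PSMB5 (4.24 to 4.80) and PSMB11 (4.22 to 4.66) lay near the array medians, so their level values may understate a change. PSMB11, known as a thymus form, was the only one of the 33 genes with a lower mean in HFD, by less than its SE.

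The ATPases of the cap, which unfold the substrate and open the core, had a median log2 fold change of 0.44. PSMC1 had 8.01 and 8.02 in HFD, against 6.77, 7.42 and 7.27 in ND, with 7.50, 7.81 and 7.91 in HFD+EV and 7.56, 7.79 and 7.49 in ND+EV. The HFD arrays were the highest of all 11. Its log2 fold change was 0.87 ± 0.20 (SE; limma adjusted p = 0.0632). PSMC5 (0.54) and PSMC2 (0.44) were higher on both HFD arrays, and the groups overlapped for PSMC3 and PSMC6. In the rest of the cap PSMD1, the large scaffold of its base, gave 1.05 (limma adjusted p = 0.0600), and the lid subunits PSMD11, PSMD3 and PSMD6 gave 0.85, 0.30 and 0.14, none past the threshold.

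Of the activators, alternative caps that open the core without ATP, PSME1 stood above the other 3. It had 7.54 and 7.33 in HFD, against 5.99, 7.06 and 6.78 in ND, with 6.61, 7.35 and 7.34 in HFD+EV and 7.09, 7.18 and 7.01 in ND+EV. Its log2 fold change of HFD over ND was 0.82 ± 0.30 (SE; limma adjusted p = 0.136). Its partner PSME2, with which it forms a ring, and PSME3 and PSME4 lay between 0.10 and 0.24, with overlapping groups.

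PSMF1, known as an inhibitor of the core in vitro, had 8.41 and 8.24 in HFD, against 7.08, 7.84 and 8.32 in ND, with 7.83, 8.03 and 8.01 in HFD+EV and 8.02, 7.96 and 8.01 in ND+EV. ND alone spanned the range of all groups but for the top array, and the log2 fold change was 0.58 ± 0.27 (SE; limma adjusted p = 0.229).

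The assembly chaperones differed least. PSMD5, which holds part of the cap's base during assembly, had 5.01 and 4.88 in HFD, against 4.67, 4.32 and 4.54 in ND, with 4.63, 5.08 and 4.75 in HFD+EV and 4.17, 4.74 and 4.53 in ND+EV. It was the only chaperone whose HFD arrays lay above all ND arrays (log2 fold change 0.44 ± 0.19, SE; limma adjusted p = 0.201). PSMG3, a chaperone of the alpha ring, had 5.79 and 5.12 in HFD, against 5.42, 5.47 and 5.40 in ND, with 5.39, 5.36 and 5.19 in HFD+EV and 5.54, 6.03 and 5.51 in ND+EV. The HFD arrays lay on either side of ND, and the log2 fold change was 0.028 ± 0.21 (SE). PSMG4, PSMD9 and PSMD10 lay between 0.016 and 0.044. The median was 0.028 for the 5 assembly genes, against 0.83 for the 10 core genes and 0.54 for the 13 cap genes, of which the 8 non-ATPase subunits gave 0.95, the highest of any role. This difference between roles was not tested.

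**Figure D3:**
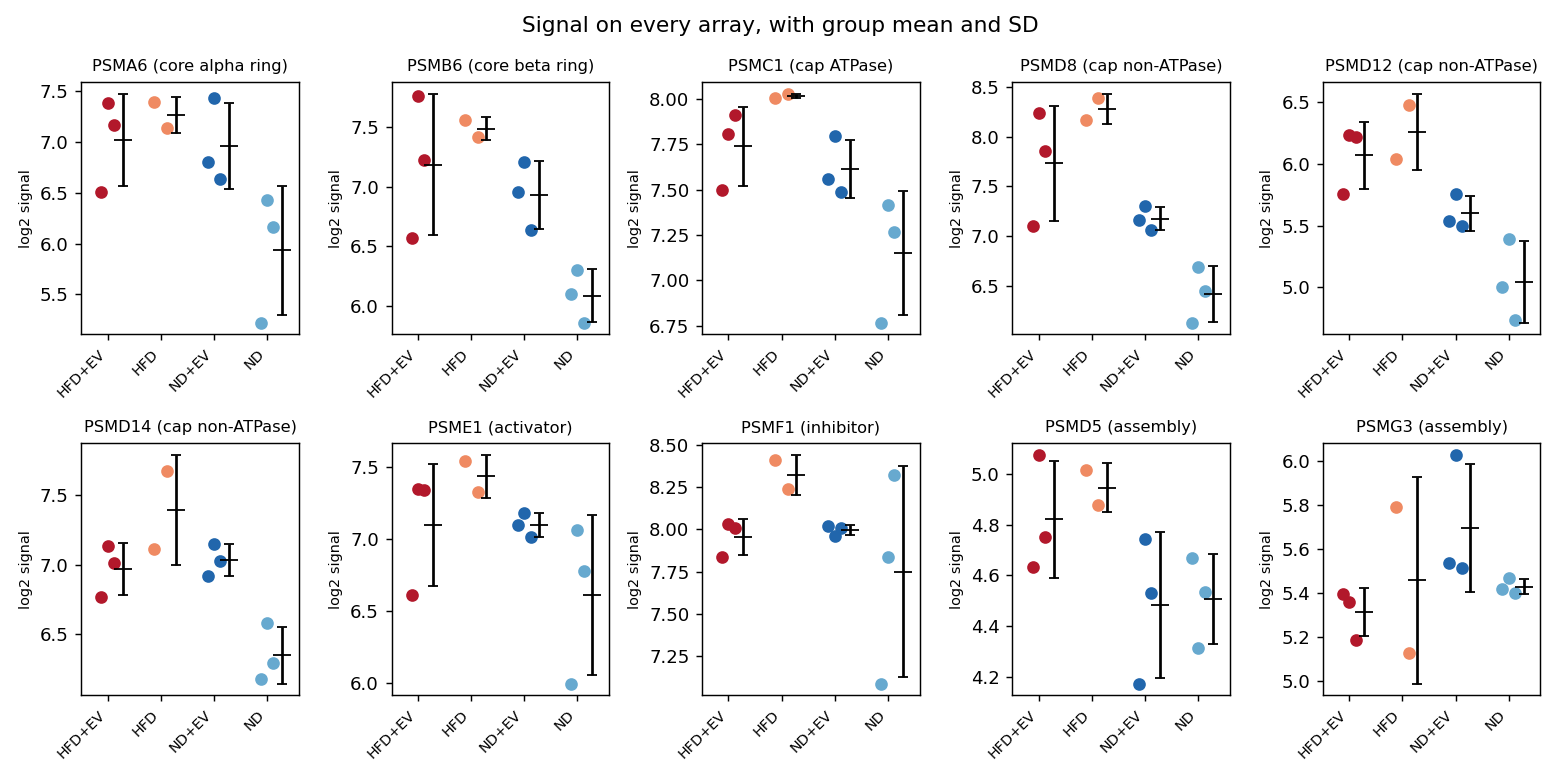
Log2 signal (vertical axes, each with its own range) on every array of the 4 groups, for 10 proteasome genes, with the group mean and SD in black beside the points (n = 2 in HFD, n = 3 in the other groups). In PSMB6, PSMD8 and PSMD14 all ND arrays lie below the other 8 arrays, and in PSMG3 the HFD arrays lie on either side of ND.

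Signal strength and tissue markers moved with this comparison, and their part in it was not tested. Across probe sets the log2 fold change of HFD over ND correlated with mean signal (r = 0.337 over 20668 probe sets, which share the same 5 arrays). In the brightest 25% of probe sets tested the median was 0.28 and 72.9% were higher in HFD. These held 17 of the 33 proteasome genes, among them 13 of the 23 core and cap genes and 0 of the 5 assembly genes. Of the marker lists, all 7 fibroblast genes (median log2 fold change 0.73), all 6 atrial genes (1.03), all 5 endothelial genes (0.24), 5 of 6 smooth muscle and pericyte genes (0.26) and 4 of 7 ventricular genes (0.24) had a higher mean in HFD. So did 3 of 5 macrophage, 1 of 2 nerve, 2 of 5 adipocyte, 1 of 5 T and B cell and 0 of 2 red cell genes. None of these 50 marker genes passed. The summed signal of the fibroblast list was 12.72 to 13.28 in HFD and 11.36 to 12.78 in ND (log2 of the sum), that of the atrial list was 10.01 to 10.94 in HFD and 8.23 to 10.35 in ND, and that of the ventricular list was 14.96 to 15.01 in HFD and 14.71 to 14.94 in ND. In whole tissue, fewer cells of a type and less RNA per cell cannot be told apart.

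Without ND replicate 1 the median of the 33 genes in HFD against ND was 0.42, and without both ND replicates 1 and 3 it was 0.31. At 25 genes the HFD arrays then lay above ND replicate 2, against 35.3% of probe sets tested. The HFD means of PSMC3, PSMC6, PSMD13, PSME2, PSMG3 and PSMG4 lay below ND replicate 2, as did that of PSMB11. Cyclic loess and quantile normalization, which remove signal-dependent differences between arrays, gave medians of 0.26 and 0.28 and 0 members called.

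Vesicle injection under the normal diet was compared with vehicle under the same diet. ND+EV and HFD share the ND arrays as their reference, so that low ND arrays raise both sets of fold changes. In ND+EV 29 of the 33 genes had a higher mean than in ND, where 49.2% of all probe sets tested did, with a median log2 fold change of 0.28 against -0.0046. The groups did not overlap on the higher side at 10 genes (background 6.32%) and on the lower side at 1, the lid subunit PSMD3 (background 5.31%). With limma 0 of the 33 genes passed, as did 0 of 20668 probe sets (background 0%), and 11 genes had an unadjusted p under 0.05, all higher (background 4.97% higher, 8.51% in both directions).

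All 10 core genes had a higher mean in ND+EV, with a median of 0.57. PSMA6 gave 1.02 ± 0.33, PSMB6 0.85 ± 0.26, PSMB4 0.82 ± 0.35 and PSMB7 0.73 ± 0.24 (log2 fold change, SE), each with ND+EV above all ND arrays and each with a limma adjusted p of 0.548 or more. PSMA3, PSMA4 and PSMA5 gave 0.58, 0.57 and 0.43, with overlap. For the 13 cap genes, 12 higher, the median was 0.30. PSMD8 (0.75), PSMD14 (0.68), PSMD12 (0.56), PSMC1 (0.46) and PSMC2 (0.45) were higher on all 3 ND+EV arrays. The other probe set of PSMD14 gave 0.42, with overlap, PSMD1 gave 0.39 and PSMD3 -0.16. None of these cap genes passed. PSME1 gave 0.49 and PSMF1 0.25, a value that turned to -0.085 without ND replicate 1.

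Assembly genes were level in this comparison too, with a median log2 fold change of 0.0034 and 3 of 5 higher. PSMG3 was higher on all 3 ND+EV arrays (0.27 ± 0.19, SE; limma adjusted p = 0.692), and PSMD5 gave -0.023, with a sign that turned in 4 other settings. Without ND replicate 1 the median of the 33 genes was 0.18, and without ND replicate 2 it was 0.47. Without ND replicates 1 and 3 it was 0.15, with 24 genes higher, and the ND+EV arrays lay above ND replicate 2 at 13 genes, against 24.3% of probe sets tested. In the brightest 25% of probe sets the median was 0.096 and 61.4% were higher. All 7 fibroblast genes (median 0.32) and 5 of 7 ventricular genes (0.083) had a higher mean in ND+EV, and 3 of 6 atrial genes did. So did 4 of 5 macrophage (median 0.077), 3 of 5 adipocyte and 1 of 2 nerve genes. Only 2 of 6 smooth muscle and pericyte (-0.23), 2 of 5 endothelial (-0.081), 2 of 5 T and B cell and 0 of 2 red cell genes did. The groups did not overlap on the higher side at 2 genes each of the fibroblast, ventricular and macrophage lists (background 6.32%). With limma 2 macrophage genes and 1 atrial gene had an unadjusted p under 0.05, all higher (background 4.97% higher, or 8.51% in both directions). None of the marker genes passed. The summed fibroblast signal was 12.54 to 12.62 in ND+EV and 11.36 to 12.78 in ND. Their part in the proteasome values was not tested.

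**Figure D4:**
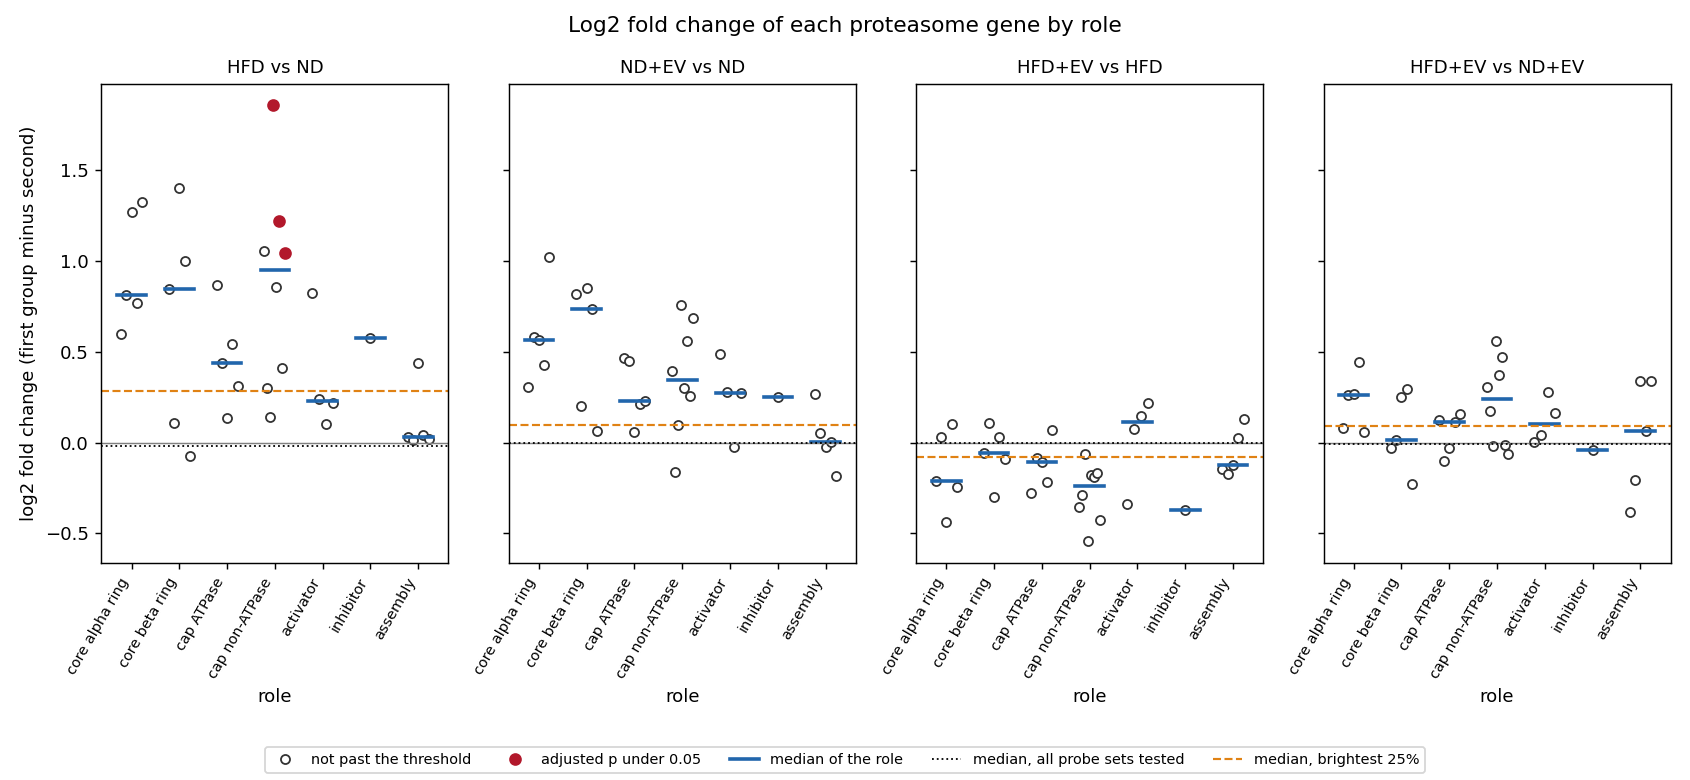
Log2 fold change of each of the 33 proteasome genes (points) by role, in 4 comparisons named above the panels; filled points passed the threshold, blue bars are the median of the role, the dotted line is the median of all probe sets tested and the dashed line that of the brightest 25%. In HFD against ND 8 of 10 core and 11 of 13 cap genes lie above the dashed line at 0.28 and 4 of 5 assembly genes lie near 0, and in HFD+EV against HFD the 33 points lie between -0.54 and 0.22.

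Vesicle injection under the high fat diet gave small differences of mixed direction. In HFD+EV 10 of the 33 genes had a higher mean than in HFD and 23 a lower one, with a median log2 fold change of -0.14, against 49.5% of all probe sets higher, 50.4% lower and a median of -0.0023. All 8 non-ATPase cap subunits had a lower mean in HFD+EV, with a median of -0.24. The groups did not overlap at 3 genes on the lower side (background 11%), PSMA4 (-0.43), PSMC1 (-0.28) and PSMF1 (-0.37). They did not overlap on the higher side at 1 gene (background 12.2%), PSME4 (0.22), a large single-chain activator known from chromatin and DNA repair. With limma 0 of the 33 genes passed, as did 0 of all probe sets (background 0%), and 0 members had an unadjusted p under 0.05 on either side (background 2.72% higher and 2.82% lower, 5.54% in all). PSMD8 gave -0.54 with a 95% interval from -1.17 to 0.080, PSMD14 -0.42 (-0.85 to 0.0011; -0.074 on its other probe set) and PSMD1 -0.36. These intervals, which rest on 3 and 2 arrays, do not settle whether the genes differ.

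The direction rested on HFD+EV replicate 1. Without that array 18 of the 33 genes had a higher mean in HFD+EV and the median was 0.010. Without HFD+EV replicate 2 only 5 did, with a median of -0.24. On HFD+EV replicate 1 the SD of log2 signal was 1.51, against 1.58 and 1.60 on HFD+EV replicates 2 and 3. All 7 fibroblast and all 6 atrial marker genes also had a lower mean in HFD+EV than in HFD, with medians of -0.20 and -1.41. The summed signals were 12.40 to 13.08 in HFD+EV and 12.72 to 13.28 in HFD for fibroblast genes, and 8.74 to 9.56 in HFD+EV and 10.01 to 10.94 in HFD for atrial genes. The part of these markers and of the spread of signal was not tested.

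The diets were also compared in vesicle-injected hearts. In HFD+EV 23 of the 33 genes had a higher mean than in ND+EV, against 48.8% of all probe sets tested, with a median log2 fold change of 0.11 against -0.0066. The groups did not overlap on the higher side at any gene (0 of 33, background 7.58%) and did so on the lower side only at PSMG3 (-0.38 ± 0.19, SE; background 6.93%). With limma 0 genes and 0 probe sets passed (background 0%), and 1 gene, PSMD12, had an unadjusted p under 0.05 on the higher side (background 4.14%, or 7.36% in both directions). PSMD12 gave 0.47 with a 95% interval from 0.029 to 0.91 (limma adjusted p = 0.657) and PSMD8 gave 0.56, from -0.00082 to 1.11. PSMA5 gave 0.44, and the chaperones PSMD5 and PSMD10 gave 0.34 each. PSMD14 gave -0.063 on its brighter probe set and 0.52 on the other, so its probe sets disagreed here. Without HFD+EV replicate 1 the HFD+EV arrays lay above all ND+EV arrays at 15 genes (background 18.3%) and the median was 0.29. Without HFD+EV replicate 2 the median was -0.017. Of the marker lists 5 of 6 smooth muscle and pericyte genes (median 0.33), all 5 endothelial genes (0.22), 6 of 7 fibroblast genes (0.16) and 6 of 7 ventricular genes (0.14) had a higher mean in HFD+EV, and their part was not tested.

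Whether the response to vesicles differed between the diets was tested as the EV effect under the high fat diet less that under the normal diet. This difference was below 0 for 30 of the 33 genes, against 49.8% of all probe sets tested, with a median of -0.43 against 0.0013. In the main fit it was below 0 for all 23 core and cap genes. The 3 genes above 0, PSME3, PSMD9 and PSMD10, are 1 activator and 2 chaperones. In other settings the sign turned for the core genes PSMB5 and PSMB11. It also turned for the cap genes PSMC3, PSMC6, PSMD3, PSMD11 and PSMD13, and for PSME3 and PSMD9. The HFD and ND arrays of the diet comparison above enter this difference too, and high HFD or low ND arrays lower it. PSMD8 gave -1.30 ± 0.38 (SE), PSMA6 -1.27 ± 0.50, PSMB6 -1.15 ± 0.40, PSMD14 -1.11 ± 0.26 (-0.50 ± 0.40 on its other probe set) and PSMA4 -1.0002 ± 0.37. PSMD1 (-0.75), PSMD12 (-0.75) and PSMC1 (-0.74) followed. With limma 0 members passed, as did 0 of all probe sets (background 0%). 8 members had an unadjusted p under 0.05, all below 0 (background 4.55%, or 8.42% in both directions), and the lowest adjusted p of a member was 0.572. The median was -0.29 without HFD+EV replicate 1 and -0.66 without ND replicate 2. Without ND replicates 1 and 3, 8 genes were above 0 and the median was -0.18. In the brightest 25% of probe sets it was -0.17, with 33.8% above 0. The difference was below 0 for all 7 fibroblast genes (median -0.56) and all 6 atrial genes (-1.12) too, and their part was not tested.

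The proteasome genes varied together also within the groups. Over the 11 arrays the median Pearson correlation between pairs of the 33 genes was 0.533, and 84.1% of pairs were positive, against a median of 0.0032 and 50.3% among pairs of 9739 genes. With each group's mean removed the median was 0.486. Without ND replicates 1 and 3 it was 0.495 with group means kept, and the value within groups was not computed. These correlations are descriptions over the same arrays, which share the spread of signal named above. Set against the mean deviation of the other 32 genes, PSMB7 (r = 0.959), PSMA6 (0.949), PSMC1 (0.949), PSMB6 (0.946) and PSMD8 (0.938) followed it most closely. PSMB11 (-0.104), PSMD9 (-0.0046), PSMD10 (0.0010), PSMG3 (0.0455), PSME4 (0.197), PSME3 (0.214) and PSMG4 (0.22) followed it least. These 7 are, but for the thymus form PSMB11, activators or chaperones. Without ND replicates 1 and 3, PSME3 (0.653) and PSMD9 (0.489) followed it more closely, and PSMB11 gave -0.455.

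Genes outside the list with the pattern most like a called member were named by Pearson correlation over the 11 arrays. For PSMD8 they were SQSTM1 (0.978), TMED2 (0.974) and KCMF1 (0.973). For PSMD12 they were UXS1 (0.981), CAPRIN1 (0.981) and CLNS1A (0.98), and for PSMD14 SPCS3 (0.962), UBE2B (0.959) and OSTM1 (0.953). For each member these are the highest correlations picked on these same arrays. The log2 fold changes of the named genes in HFD over ND ran from 0.56 (UXS1) to 1.78 (UBE2B), so they share that group difference with the members. Whether they follow the members beyond it was not tested.

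Of 24 partners and regulators of the proteasome 13 had a probe set of their own and were tested. In HFD 10 had a higher mean than in ND (background 47.5%, or 72.9% in the brightest 25% of probe sets). The median log2 fold change of the 13 was 0.53. With limma 1 passed on the higher side and 1 on the lower (background 0.513% and 0.223%). RAD23B, a shuttle that carries ubiquitinated proteins to the cap, had 8.47 and 8.68 in HFD, against 7.47, 7.83 and 7.71 in ND, a log2 fold change of 0.91 ± 0.15 (SE; limma adjusted p = 0.0471). DDI1, a shuttle protein with a protease-like domain, had 3.53 and 3.61 in HFD, against 5.21, 4.61 and 4.65 in ND, and fell by 1.26 on the log2 scale (limma adjusted p = 0.0471). Both HFD values lie below 3.63, the lowest mean signal that entered the tests, so DDI1 entered through its higher groups and its signal in HFD was not shown to be above background. Both calls lie as near the threshold as those of the members, and passed in 5 of 21 and 4 of 20 other settings. With cyclic loess and quantile normalization RAD23B gave 0.52 and 0.56. Without ND replicates 1 and 3 RAD23B gave 0.74 (limma adjusted p = 0.289) and DDI1 -1.04 (0.274). VCP, the segregase that extracts ubiquitinated proteins from complexes, gave 0.73 ± 0.17 and did not pass (limma adjusted p = 0.0612).

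In ND+EV 8 of the 13 partners had a higher mean than in ND (background 49.2%, or 61.4% in the brightest 25% of probe sets). The median log2 fold change of the 13 was 0.16, and 0 passed with limma. TXNL1, a thioredoxin bound to the cap, gave 0.42, RAD23B 0.39 and DDI1 -0.48. In the other comparisons 0 partners passed (background 0%). In HFD+EV against HFD 4 of 13 were higher (median -0.11; background 49.5% higher). In HFD+EV against ND+EV 10 of 13 were (0.093; background 48.8% higher).

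PSMB9, the inducible beta subunit that replaces PSMB6 after interferon, was the only inducible subunit with a probe set of its own. Its log2 signal was 5.68, 6.16 and 5.69 in HFD+EV, 5.33 and 5.62 in HFD, 5.78, 5.72 and 5.62 in ND+EV and 5.33, 5.79 and 5.55 in ND. HFD+EV lay above HFD on every array (log2 fold change 0.37 ± 0.19, SE; limma adjusted p = 0.904). HFD against ND gave -0.080 and ND+EV against ND 0.15, with overlap in both and neither past the threshold. PSMC3IP stayed between 3.73 and 4.08 on all 11 arrays, and 0 comparisons passed with limma.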

How the data were processed

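RNA (50 ng in total per sample, per the labels' protocols) was measured on Affymetrix whole-transcript arrays. The deposited values are normalized log2 signals, 1 per probe set and array, from Transcriptome Analysis Console per the submitters' processing notes. A version, a summary method and a build were not given in the sources used here. Values ran from 2.14 to 14.02. The number of arrays limits the precision. Gene symbols are those of the array's annotation, possibly outdated (13157 probe sets with 1 symbol, 523 with several, 13878 with none). Where a gene had several probe sets, the brightest on average stood for it.

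All 11 arrays were fitted with limma 3.58.1 in R 4.3.3 (1 mean per group, lmFit and eBayes, 7 residual and 3.62 prior degrees of freedom) over the 20668 probe sets with a mean of at least 3.63. The 5 contrasts were tested two-sided, and the fit was checked on simulated data. Filters, normalizations, eBayes settings, a replicate block and left-out arrays were tried as alternatives. Members, roles, lists and tests were chosen with earlier results of these data known. Full values are given for members past the threshold and, in each role, those with the largest change in HFD against ND and in ND+EV against ND.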

Additional observations from a re-analysis of the deposited data

Results flagged for a closer look

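PSMC1 was higher on all 3 ND+EV arrays than on any ND array, and lower on all 3 HFD+EV arrays than on either HFD array. The difference of the EV effects was -0.74 ± 0.27 (SE) and did not pass with limma (adjusted p = 0.572). It was the only 1 of the 33 genes with such opposite movements, which 1.67% of all probe sets tested showed.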

How the results depend on the processing

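In HFD against ND, where 152 probe sets and 3 members passed, 0 and 0 did so with no filter, cyclic loess, quantile normalization, arrays scaled to the same median absolute deviation, eBayes with trend and robust, the groups compared only, or without ND replicates 1 and 3. With the dimmest 50% left out 5 members passed. With the replicate number as a block 938 probe sets and 8 members passed, and the block changed no other count of calls. Deviations from the group means correlated at r from -0.103 to 0.335 between same-numbered arrays, above 0 in 13 of 15 pairs and over 0.1 in 5, and 7 of 11 arrays correlated best with one of their own number. No label says what a number marks, so the numbers were not taken as pairs. Leaving out 1 array at a time gave 0 to 1356 probe sets and 0 to 9 members, with 0 members on leaving out any array other than HFD+EV replicate 1 or ND replicate 2. The cause was not tested. Members with a higher mean numbered 30 to 33 with 1 array left out, and the median was 0.417 to 0.644. With cyclic loess and with quantile normalization 29 were higher, and the medians were 0.263 and 0.284. The median was 0.309 without ND replicates 1 and 3.

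With 1 array left out, ND+EV against ND gave 27 to 29 members higher, medians of 0.182 to 0.474 and 0 to 2 probe sets called. HFD+EV against HFD gave 5 to 18 higher, medians of -0.236 to 0.010 and 0 to 1 called. HFD+EV against ND+EV gave 16 to 29 higher, medians of -0.0171 to 0.287 and 0 to 2 called (2 also without ND replicates 1 and 3). The difference of the EV effects gave 2 to 5 higher, medians of -0.656 to -0.285 and 0 to 1 called. Without ND replicates 1 and 3 its median was -0.181 with 8 higher, and 6 were higher with cyclic loess and 5 with quantile normalization. In these 4 comparisons 0 members were called in any setting.

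In every comparison signs turned in other settings for members without a printed value of their own. In HFD against ND these were PSMB11, PSMC3, PSMC6, PSMD9, PSMD10, PSMD13, PSME2, PSME3, PSME4 and PSMG4. Among the genes named with a value of their own, these signs turned. PSMG3 in HFD against ND was -0.0156 (cyclic loess), -0.0158 (quantile), -0.0275 (replicate block), -0.0117 (without ND replicates 1 and 3) and -0.305 to 0.362 with 1 array left out (HFD replicates 1 and 2). PSMD5 in ND+EV against ND was 0.00123 (cyclic loess), 0.168 (without ND replicates 1 and 3), 0.0576 (without ND replicate 1) and -0.154 to 0.132 over all arrays left out. PSMF1 there was -0.0848 without ND replicate 1 and 0.536 without ND replicate 3, and PSMB9 -0.0846 without ND replicates 1 and 3. PSMB9 in HFD against ND was -0.222 to 0.0628 with 1 array left out (HFD replicates 2 and 1), and 0.0372 without ND replicate 2. PSMD14 in HFD+EV against ND+EV was 0.038 without HFD+EV replicate 1 and -0.145 without HFD+EV replicate 2.

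Counts of members with a higher mean were added after seeing the data. Where an alternative leaves 1 array in HFD or ND, that array is assumed to vary like the other groups. Detection calls were not used, so values near the dim limit have no set floor.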
